A study of Sus scrofa with 18 samples.

Results

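The genes described here build and run the contractile machinery of striated muscle. They were chosen by name: 45 symbols of sarcomere proteins, calcium handling proteins, muscle enzymes and myogenic regulators were looked up among the 27339 genes of the deposited count table. A row was present for 42 of them, and 40 of these had enough counts to be tested. MYH3, MYH8 and MB had no row under these symbols and are not analysed here. MYOD1 and MYOG had a row but too few counts for a test.

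The RNA came from tumours of 1 engineered pig and, as controls, from healthy tissue of wild-type (WT) animals. The double knock-in (DIK) pig carries elements of the Tet-on and phiC31 integrase switching systems. It developed tumours at the nose, mouth and scrotum after doxycycline, which WT pigs of the same age also received. Doxycycline was given at 7 months of age, and sampling followed 8 months after that. The 6 groups were DIK nose, DIK mouth and DIK scrotum tumours and WT nose, WT mouth and WT scrotum tissue, with 3 libraries each. All 9 DIK libraries came from 1 founder, and how many WT animals were used is not stated. The p-values therefore describe the spread among these libraries alone, part or all of which may be technical. Which cells of the founder carried an active switch is likewise not stated.

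A sarcomere is the repeating contractile unit of a muscle fibre, in which thick filaments of myosin pull on thin filaments of actin when calcium binds the troponin complex. Giant proteins set the length of the filaments, the Z disc anchors the thin ones and the M band ties the thick ones together. Fast fibres, slow fibres and heart muscle use different genes for the same parts, so the mix of myosin, troponin and actin genes in a tissue reflects its kind of muscle. Muscles of the snout, lips and tongue are skeletal and lie directly under the skin or mucosa.

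Library totals ran from 2024959 to 4146150 counts in DIK and in WT from 418665, in the first WT nose library, to 5041470, in the third. Levels are given as CPM, counts relative to the TMM-scaled library total, and log2 differences are edgeR estimates ± SE. HOX genes of the hind body went against the tissue labels: their summed level was 10.7 to 18.2 CPM in DIK mouth and 40.2 to 66.9 CPM in WT mouth libraries. In the libraries labelled scrotum it was 0.624 to 3.62 CPM in DIK and 2.51 to 4.25 CPM in WT. The labels are kept as given, and "mouth" and "scrotum" below mean the libraries labelled so. DIK nose replicate 2 and WT scrotum replicate 2 held fewer muscle reads than the other libraries of their groups. In bulk tissue, fewer muscle cells and less muscle RNA per cell cannot be told apart.

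The 42 genes together took a large part of the WT RNA at 2 of the 3 labels and almost none of the tumour RNA. They held 0.0399, 0.0459 and 0.0367% of all counts in the DIK scrotum libraries, against 33.5, 16.4 and 30.5% in WT scrotum. At the mouth label the shares were 0.0472, 0.0360 and 0.0385% in DIK and 1.31, 3.21 and 3.97% in WT. At the nose label they were 0.0952, 0.0253 and 0.126% in DIK and 16.04, 13.8 and 17.99% in WT. DIK and WT libraries did not overlap at any label. The WT mouth libraries stood between the tumours and the other WT tissues. Tropomyosin TPM3, whose gene also encodes cytoskeletal tropomyosins of many other cell types, made up most of what was left in the tumours at the mouth and scrotum labels. Without it the summed level in CPM of the unscaled total was 24.6, 26.96 and 75.1 in DIK scrotum, 14.8, 23.1 and 19.9 in DIK mouth and 775, 34.3 and 1035 in DIK nose. The corresponding WT sums were 328125, 160020 and 298433 for scrotum, 12945, 31990.4 and 39535 for mouth and 157775, 135865 and 176700 for nose.

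**Figure D1:**
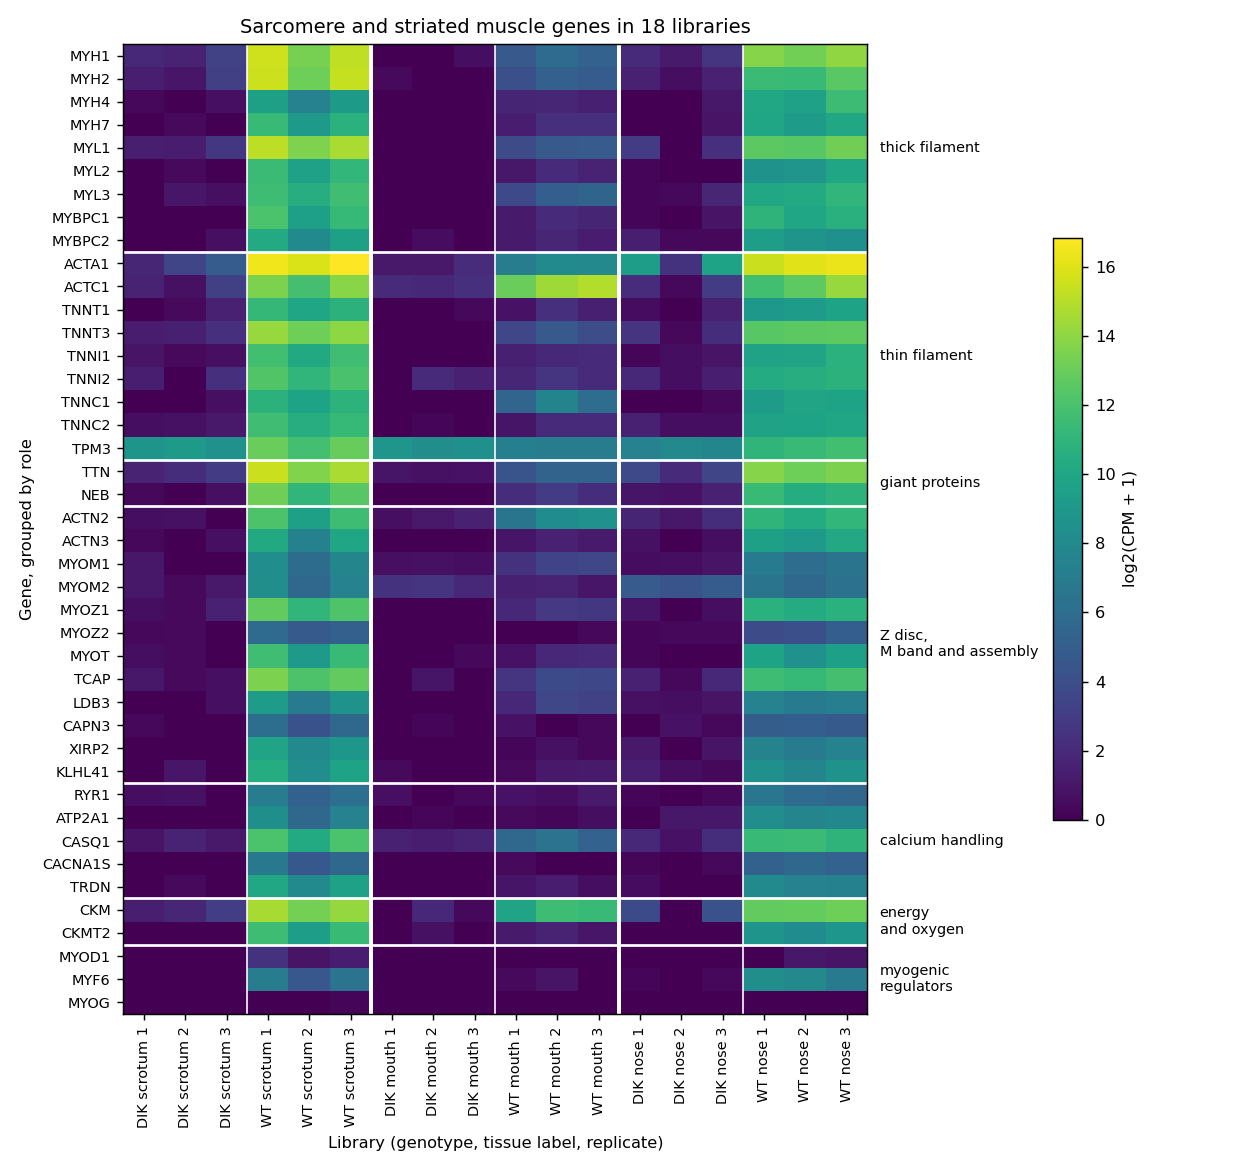
Level of the 42 genes with a row, grouped by role (vertical axis), in each of the 18 libraries (horizontal axis), as log2(CPM + 1) with a pseudocount of 1 CPM. The DIK columns are near 0 for all but a few genes, the WT scrotum and WT nose columns are high for nearly all genes, and WT mouth is high for ACTC1 and CKM but low for the myosin heavy chains.

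The comparison of tumour with normal tissue asked how far each muscle gene differed at each site. At the scrotum label 40 of the 40 tested genes were lower in DIK (edgeR quasi-likelihood test, adjusted p under 0.05), where 24% of all 12895 tested genes were called lower. At the mouth label 29 were lower and 10 were not called, against 24.3% of all genes called lower. TPM3 alone was higher there, against 22.7% of all genes called higher. At the nose label 40 of 40 were lower, against 20.1% of all genes. The median log2 difference of the tested muscle genes was -12.20 for scrotum (-12.04 with genes at 0 counts set to their bound), -5.13 for mouth (-3.52 with bounds) and -10.07 for nose. Over all tested genes the medians were -0.09, -0.04 and 0.03 in the same order of labels. Most of the muscle genes had so few DIK counts that they passed the filter through the WT libraries, so these counts and medians are a description and no test of the list. Of the 12 genes of fast fibres, all 12 were lower at the scrotum and nose labels and 10 at the mouth label. Of the 9 genes of slow fibres, 9 were lower at scrotum and nose, while at the mouth label 7 were lower, 1 was higher and 1 was not called.

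**Figure D2:**
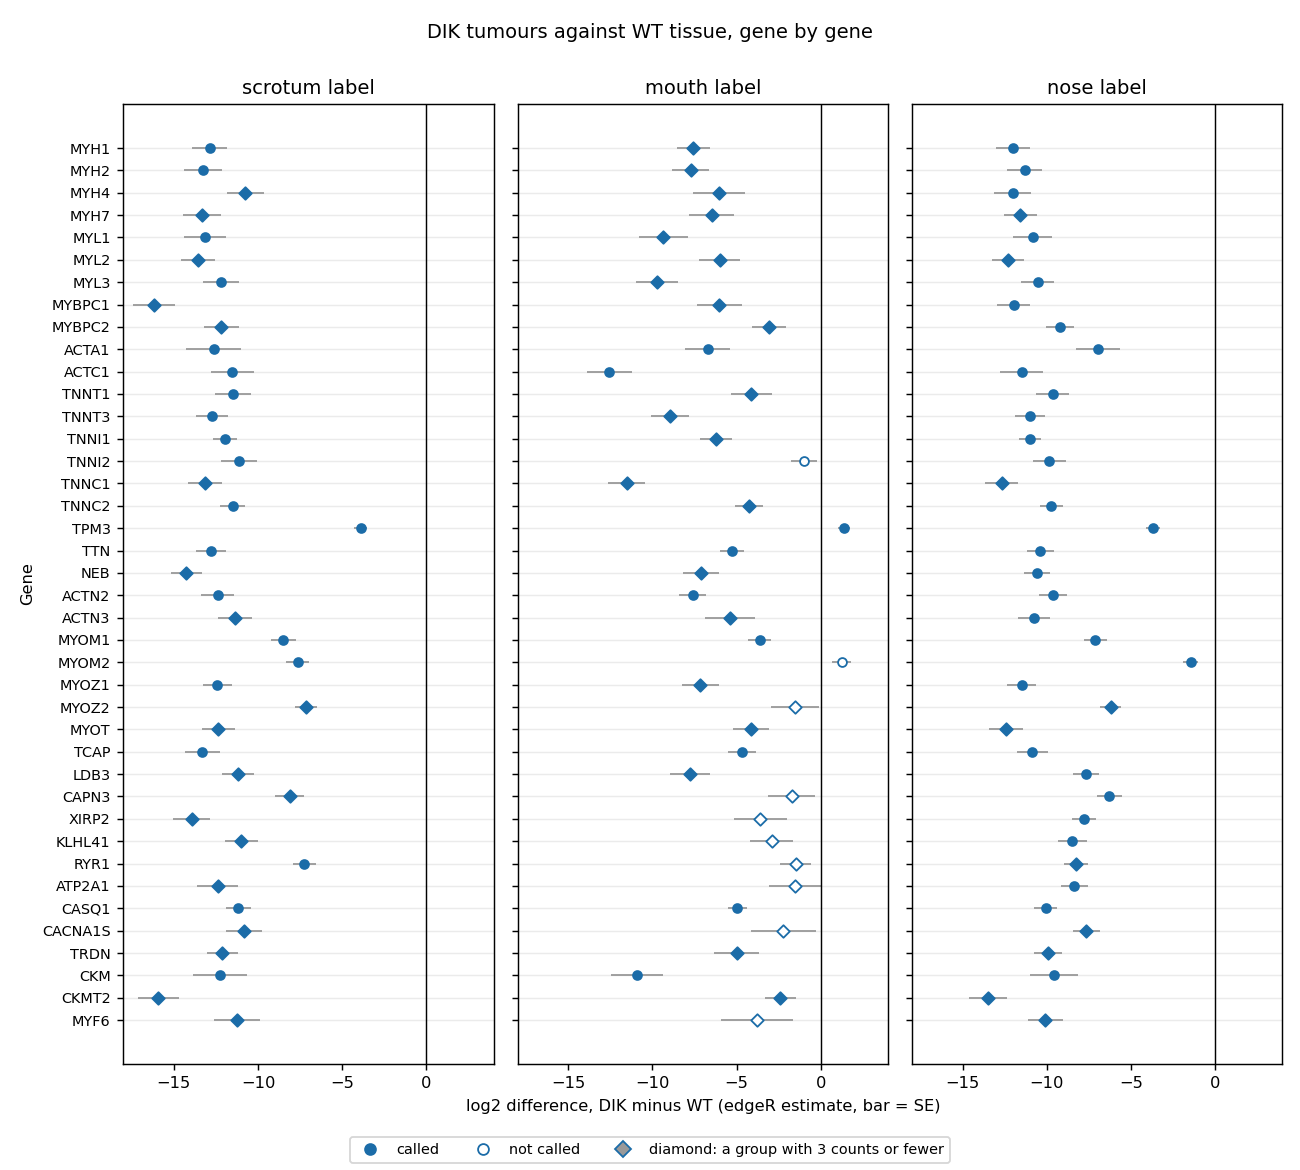
Difference between DIK and WT for each of the 40 tested genes (vertical axis) at the 3 labels, as edgeR log2 difference with its approximate SE (horizontal axis). Filled symbols are called at an adjusted p under 0.05, hollow ones are not, and diamonds mark genes with 3 counts or fewer in a group, whose estimate is no bound. At the scrotum and nose labels every symbol is filled and left of 0, while at the mouth label 10 are hollow and TPM3 lies to the right at 1.40.

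Keratinocyte genes moved the other way in the same libraries. The summed level of the 8 keratinocyte markers with a row was 83101 to 115815 CPM in DIK scrotum and 76.3 to 14892 CPM in WT scrotum. It was 85065 to 89901 CPM in DIK mouth and 127 to 1351 CPM in WT mouth. At the nose label it was 51257 to 66533 CPM in DIK and 514 to 1383 CPM in WT. No marker of that list was at 0 in any of the 6 groups. The 10 smooth muscle markers summed to 3743 to 6025 CPM in DIK scrotum, 3482 to 4558 CPM in DIK mouth and 1203 to 3424 CPM in DIK nose. In WT they summed to 7179 to 53331 CPM for scrotum, 98126 to 176664 CPM for mouth and 24229 to 36744 CPM for nose. The part that the cell makeup had in the muscle gene differences was not tested.

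The myosin heavy chains MYH1, MYH2, MYH4 and MYH7, the motors of the thick filament, were called lower in the tumours at all 3 labels. MYH1, the chain of fast IIx fibres, had 2.79, 2.14 and 8.73 CPM in DIK scrotum, against 49643, 10866 and 37683 CPM in WT scrotum. At the mouth label MYH1 had 0, 0 and 0.532 CPM in DIK, against 25.2, 57.5 and 38.7 CPM in WT. At the nose label it had 3.15, 1.34 and 5.17 CPM in DIK, against 14032, 9668 and 16456 CPM in WT. Every WT library lay above every DIK library, and the WT mouth mean was 0.302% of the WT nose mean. The log2 differences were -12.88 ± 1.04 for scrotum (edgeR adjusted p = 4.68e-08) and -12.01 ± 1.005 for nose (adjusted p = 1.13e-07). At the mouth label MYH1 had 2 counts in DIK and 638 in WT and was lower by a ratio of 222 (95% interval of counting error 61.3 to 1839).

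MYH2, the chain of fast oxidative IIa fibres, had 1.67, 1.07 and 8.11 CPM in DIK scrotum, against 48644, 8876 and 42061 CPM in WT scrotum. For the mouth label its values were 0.316, 0 and 0 CPM in DIK, against 16.4, 34.8 and 29.3 CPM in WT. For the nose label they were 1.94, 0.537 and 1.91 CPM in DIK, against 2842, 2675 and 5828 CPM in WT. The groups did not overlap at any label, and the highest WT levels were in scrotum replicates 1 and 3. MYH2 differed by -13.28 ± 1.11 for scrotum (edgeR adjusted p = 6.34e-08) and -11.30 ± 1.05 for nose (adjusted p = 3.22e-07), and by a ratio of 289.8 (95% interval of counting error 51.7 to 11475) for mouth, where DIK held 1 count.

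MYH4, the chain of the fastest IIb fibres, had 0.279, 0 and 0.624 CPM in DIK scrotum and 758, 177 and 564 CPM in WT scrotum. At the nose label its values were 0, 0 and 1.09 CPM in DIK and 1062, 789 and 2963 CPM in WT. In the mouth libraries it had 0, 0 and 0 counts in DIK, against 2.39, 2.43 and 1.83 CPM in WT, and was at least 8.36-fold lower (edgeR adjusted p = 0.00479). Among the fast chains only MYH4 had a higher WT mean in nose than in scrotum. Its log2 difference for nose was -12.03 ± 1.09 (edgeR adjusted p = 1.32e-06). All 4 counts in DIK nose lay in replicate 3, and without that library the log2 difference was -15.51, an estimate that depends on the prior count. For scrotum, with 2 DIK counts, it was lower by a ratio of 1743 (95% interval of counting error 482 to 14398).

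MYH7, the chain shared by slow fibres and the heart ventricle, had 0, 1 and 0 counts in DIK scrotum, against 2657, 548 and 1707 CPM in WT scrotum. In the nose libraries it had 0, 0 and 3 counts in DIK, against 956, 626 and 1109 CPM in WT. In the mouth libraries it had 0, 0 and 0 counts in DIK, against 1.44, 3.81 and 3.92 CPM in WT. The DIK groups thus held 0 to 3 MYH7 counts in all and did not overlap WT. MYH7 was lower by a ratio of 11209 (95% interval of counting error 2011 to 442756) for scrotum and 3583 (95% interval of counting error 1226 to 17380.2) for nose, and at least 10.7-fold lower for mouth (edgeR adjusted p = 0.00114). MYH1, MYH2 and MYH4 are near-identical neighbours, and the counting could have split their reads.

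The myosin light chains were also lower in the tumours. MYL1, the essential light chain of fast fibres, had 1.67, 1.43 and 5.61 CPM in DIK scrotum, against 35547, 12063 and 26294 CPM in WT scrotum. Its nose values were 7.02, 0 and 4.08 CPM in DIK, against 6044, 5512 and 9147 CPM in WT. It had 0, 0 and 0 counts in DIK mouth, against 14.4, 25.1 and 27.2 CPM in WT mouth. DIK nose replicate 2 and all DIK mouth libraries were at 0. MYL1 differed by -13.15 ± 1.24 for scrotum (edgeR adjusted p = 7.78e-07) and -10.84 ± 1.14 for nose (adjusted p = 3.23e-06), and was at least 78.7-fold lower for mouth.

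MYL3, the essential light chain of slow fibres and ventricle, had 0, 1.07 and 0.624 CPM in DIK scrotum, against 3149.6, 1414 and 3302 CPM in WT scrotum. The nose libraries had 0.242, 0.269 and 2.45 CPM in DIK, against 1098, 1256 and 2141 CPM in WT. The mouth libraries had 0, 0 and 0 counts in DIK, against 11.96, 32.1 and 42.05 CPM in WT. The slow chain was called lower at all 3 labels, with differences of -12.21 ± 1.07 for scrotum and -10.55 ± 0.98 for nose (edgeR adjusted p = 4.22e-07 and 1.07e-06), and at least 97.8-fold for mouth. MYL2, the regulatory chain of slow fibres and ventricle, had 0, 1 and 0 counts in DIK scrotum, 0, 0 and 0 in DIK mouth and 1, 0 and 0 in DIK nose. In WT it had 2811, 777 and 2219 CPM in scrotum, 1.12, 3.29 and 2.09 CPM in mouth and 377, 428 and 988 CPM in nose. Single counts in 2 of the 9 tumour libraries were thus its whole residue.

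Myosin-binding protein C stiffens and regulates the thick filament. MYBPC1, its slow form, had 0, 0 and 0 counts in DIK scrotum, against 4348, 719.9 and 2485 CPM in WT scrotum, and was at least 5620.1-fold lower. In mouth libraries there were 0, 0 and 0 counts in DIK, against 1.28, 2.95 and 2.35 CPM in WT, and in nose 0.242, 0 and 0.816 CPM in DIK, against 1985, 968 and 1656 CPM in WT. MYBPC1 thus kept no count in 7 of the 9 tumour libraries. MYBPC2, its fast form, had 0, 0 and 0.624 CPM in DIK scrotum, against 1249, 257 and 768 CPM in WT scrotum, and 1.69, 0.269 and 0.272 CPM in DIK nose, against 677, 409 and 348 CPM in WT nose. For mouth there were 0, 2 and 0 counts in DIK and 8, 14 and 6 counts in WT, for a ratio of 9.75 (95% interval of counting error 2.46 to 84.5) (edgeR adjusted p = 0.02). That call was lost without DIK mouth replicate 1 or 3 or WT mouth replicate 2 (adjusted p = 0.0691, 0.0749 and 0.0631), and without DIK mouth replicate 2 its log2 difference went to -5.70 against -3.08 ± 1.02 with all libraries.

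The 2 striated muscle actins, which form the thin filament, behaved differently between the WT tissues. ACTA1, the actin of adult skeletal muscle, had 2.51, 10.3 and 29.3 CPM in DIK scrotum, against 88489.8, 58845 and 116159 CPM in WT scrotum. Mouth libraries held 1.26, 1.21 and 3.46 CPM in DIK, against 137, 249.7 and 240.3 CPM in WT. For nose the values were 681, 4.57 and 884 CPM in DIK, against 46556, 67555 and 81064 CPM in WT. DIK nose replicates 1 and 3 held far more ACTA1 than any other tumour library, more even than any WT mouth library, while DIK nose replicate 2 was at the level of the other tumours. ACTA1 differed by -12.65 ± 1.64 for scrotum, -6.70 ± 1.34 for mouth and -6.96 ± 1.31 for nose (edgeR adjusted p = 1.5e-05, 0.000706 and 0.000583).

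ACTC1, the actin of heart muscle and of developing skeletal muscle, had 2.23, 0.713 and 8.11 CPM in DIK scrotum, against 11778, 3715 and 14896 CPM in WT scrotum. In mouth it had 3.16, 2.91 and 3.99 CPM in DIK, against 8058, 22394 and 30611 CPM in WT. In nose it had 3.39, 0.269 and 6.53 CPM in DIK, against 3458, 6500.3 and 19229.5 CPM in WT. WT mouth replicates 2 and 3 were the highest of all 18 libraries for ACTC1, in the tissue where the other sarcomere genes were low. The differences were -11.53 ± 1.29 for scrotum, -12.56 ± 1.32 for mouth and -11.47 ± 1.28 for nose (edgeR adjusted p = 2.53e-06, 1.87e-06 and 3.3e-06). Actins are similar in sequence, and how reads shared between them were treated is not stated.

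Troponin T, the subunit that ties the troponin complex to tropomyosin, is encoded by TNNT3 in fast and TNNT1 in slow fibres. TNNT3 had 1.39, 1.78 and 3.74 CPM in DIK scrotum, against 19599, 8765 and 16371 CPM in WT scrotum, and 5.08, 0.269 and 3.54 CPM in DIK nose, against 5727, 6100.4 and 6529 CPM in WT nose. The mouth libraries had 0, 0 and 0 counts in DIK, against 11.004, 25.1 and 14.6 CPM in WT, and the gene was at least 62.7-fold lower. TNNT3 differed by -12.73 ± 0.95 for scrotum and -10.99 ± 0.89 for nose (edgeR adjusted p = 5.71e-08 and 1.81e-07), with no overlap between the groups. TNNT1 had 0, 0.357 and 1.87 CPM in DIK scrotum, against 2326, 935 and 1835 CPM in WT scrotum, and 0.484, 0 and 1.91 CPM in DIK nose, against 501, 598 and 868 CPM in WT nose. In mouth libraries there were 0, 0 and 1 counts in DIK and 5, 22 and 7 counts in WT, for a ratio of 23.7 (95% interval of counting error 3.97 to 963).

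Troponin I, the inhibitory subunit, is encoded by TNNI2 in fast and TNNI1 in slow fibres. TNNI2 had 1.67, 0 and 3.74 CPM in DIK scrotum, against 4894, 2186 and 4054 CPM in WT scrotum, and 2.66, 0.537 and 1.63 CPM in DIK nose, against 1301, 1461 and 1788 CPM in WT nose. For mouth the values were 0, 3.15 and 1.86 CPM in DIK, against 2.55, 4.68 and 3.13 CPM in WT. At that label the groups overlapped and the difference of -0.99 ± 0.79 was not called (edgeR adjusted p = 0.322), while for scrotum and nose it was -11.13 ± 1.07 and -9.84 ± 1.01 (adjusted p = 4.68e-07 and 1.32e-06). TNNI1 had 0.836, 0.357 and 0.624 CPM in DIK scrotum, against 3422, 1193 and 3192 CPM in WT scrotum, and 0.242, 0.537 and 0.816 CPM in DIK nose, against 809, 903 and 1689 CPM in WT nose. Mouth libraries held 0, 0 and 0 counts in DIK, against 1.75, 2.77 and 3.13 CPM in WT, and the gene was at least 9.06-fold lower. So in DIK mouth the fast troponin I gene kept 20 counts and the slow one kept 0.

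Troponin C, the calcium sensor, is encoded by TNNC2 in fast fibres and by TNNC1 in slow fibres and heart. TNNC1 had 0, 0 and 1 counts in DIK scrotum, against 1805, 857 and 1889 CPM in WT scrotum, and 0, 0 and 1 counts in DIK nose, against 595, 912 and 883 CPM in WT nose. In mouth it had 0, 0 and 0 counts in DIK, against 43.2, 194 and 63.7 CPM in WT, and the gene was at least 379-fold lower (edgeR adjusted p = 1.07e-06). WT mouth held TNNC1 at 12.6% of its WT nose mean, where TNNC2 stood at 0.270%. TNNC2 had 0.558, 0.713 and 1.25 CPM in DIK scrotum, against 3188, 1404 and 2488 CPM in WT scrotum, and 1.94, 0.537 and 0.544 CPM in DIK nose, against 824, 847 and 1001 CPM in WT nose. The mouth libraries had 0, 0.242 and 0 CPM in DIK, against 0.957, 3.12 and 3.13 CPM in WT, with 1 DIK count and a ratio of 25.1 (95% interval of counting error 4.22 to 1018).

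Tropomyosin covers the actin filament and is moved by troponin. TPM3 was the 1 gene of the 40 called higher in a tumour comparison, and it had 592 to 1508 counts in each tumour library. It had 412, 538 and 369 CPM in DIK scrotum, against 8257, 3637 and 7805 CPM in WT scrotum. Its mouth values were 438, 322 and 346 CPM in DIK, against 149, 131 and 137 CPM in WT. The nose libraries had 177, 244 and 212 CPM in DIK, against 2104, 2606 and 3415 CPM in WT. The DIK libraries lay below WT for scrotum and nose and above WT for mouth, without overlap in each case. TPM3 differed by -3.90 ± 0.40 for scrotum, 1.40 ± 0.36 for mouth and -3.68 ± 0.39 for nose (edgeR adjusted p = 5.08e-07, 0.00381 and 1.24e-06). Gene-level counts do not separate the muscle and cytoskeletal transcripts of TPM3.

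TTN and NEB encode titin and nebulin, the giant rulers of the thick and thin filaments. TTN had 2.23, 3.57 and 6.86 CPM in DIK scrotum, against 46569, 13025 and 26942 CPM in WT scrotum. For mouth the values were 0.947, 0.727 and 0.797 CPM in DIK, against 19.8, 39.3 and 39.4 CPM in WT, and in nose 12.3, 2.95 and 10.6 CPM in DIK, against 14273, 8705 and 11594 CPM in WT. No DIK library reached its WT group, and the differences were -12.79 ± 0.87, -5.27 ± 0.69 and -10.37 ± 0.79 for scrotum, mouth and nose (edgeR adjusted p = 8.62e-09, 1.03e-05 and 4.86e-08). NEB had 2 counts over the DIK scrotum libraries and 55417 over WT scrotum, for a ratio of 19539.6 (95% interval of counting error 5409 to 161349). It had 0 counts in DIK mouth and 75 in WT mouth, at least 17.4-fold lower, and differed by -10.59 ± 0.78 for nose (adjusted p = 8.08e-08).

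Among the 12 genes of the Z disc, M band and sarcomere assembly, 12 were lower at the scrotum and nose labels and 7 at the mouth label. Over all tested genes 24% were called lower for scrotum, 20.1% for nose and 24.3% for mouth. TCAP, the telethonin that caps titin at the Z disc, had 1.12, 0.357 and 0.624 CPM in DIK scrotum, against 11425, 4555 and 7192 CPM in WT scrotum. Mouth libraries held 0, 0.969 and 0 CPM in DIK, against 5.10, 12.995 and 11.8 CPM in WT, and in nose 1.94, 0.269 and 2.72 CPM in DIK, against 3141, 2476 and 3721 CPM in WT. TCAP differed by -13.30 ± 1.03, -4.70 ± 0.84 and -10.86 ± 0.92 for scrotum, mouth and nose (edgeR adjusted p = 2.74e-08, 0.000205 and 1.21e-07). All 4 of its DIK mouth counts were in replicate 2, and without that library the mouth difference was -8.17. At the mouth label CAPN3, a muscle calpain, XIRP2, a Xin repeat protein of cell junctions, KLHL41, which stabilises nebulin, MYOZ2 and MYOM2 were not called (edgeR adjusted p = 0.324, 0.0788, 0.0684, 0.404 and 0.0893). Apart from MYOM2 these 5 had at most 14 counts over the WT mouth libraries, so a decrease was hardly detectable there at this depth. ACTN2 and ACTN3, the actinins that cross-link thin filaments at the Z disc, differed by -7.59 ± 0.80 and at least 5.11-fold for mouth, and LDB3 by at least 26.2-fold. MYOT, myotilin of the Z disc, was lower by a ratio of 22.99 (95% interval of counting error 3.85 to 935). KLHL41 was called lower without WT mouth replicate 1 (-3.39, adjusted p = 0.0382).

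The calsarcins bind calcineurin at the Z disc, MYOZ1 in fast and MYOZ2 in slow fibres. MYOZ1 had 0.558, 0.357 and 1.87 CPM in DIK scrotum, against 6911, 2171 and 4604 CPM in WT scrotum, and 0.968, 0 and 0.544 CPM in DIK nose, against 1679, 1283 and 1754 CPM in WT nose. In mouth it had 0, 0 and 0 counts in DIK, against 2.87, 6.06 and 5.75 CPM in WT, and the gene was at least 17.4-fold lower. MYOZ2 was sparse throughout, with 1, 1 and 0 counts in DIK scrotum, against 58.9, 25.9 and 35.003 CPM in WT scrotum. The mouth libraries had 0, 0 and 0 counts in DIK and 0, 0 and 1 in WT, both under the floor of 3 counts. For nose there were 1, 1 and 1 counts in DIK, against 13.4, 15.996 and 31.9 CPM in WT, which is lower by a ratio of 96.9 (95% interval of counting error 32.7 to 474).

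MYOM2, the M-protein of the M band, had the smallest difference of the 40 genes at the nose label. It had 28.1, 19.3 and 29.4 CPM in DIK nose, against 89.9, 47.3 and 76.3 CPM in WT nose. Its mouth values were 4.42, 4.85 and 2.66 CPM in DIK, against 1.75, 2.08 and 1.04 CPM in WT, and in scrotum 1.12, 0.357 and 1.25 CPM in DIK, against 323, 50.99 and 174 CPM in WT. All 3 DIK nose libraries, replicate 2 included, held it below WT nose, and the DIK mouth libraries held it above WT mouth. The differences were -1.45 ± 0.47 for nose (edgeR adjusted p = 0.0184), 1.23 ± 0.58 for mouth (not called, adjusted p = 0.0893) and -7.65 ± 0.68 for scrotum (adjusted p = 1.62e-07). The nose call was lost without DIK nose replicate 2, WT nose replicate 1 or WT nose replicate 3 (adjusted p = 0.0764, 0.0604 and 0.0608), which left 39 genes lower in DIK nose. MYOM1, myomesin of the same band, differed by -7.11 ± 0.70 for nose, where the 2 genes thus differed widely in how much was kept.

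Of the 5 calcium handling genes, all 5 were lower in DIK scrotum and DIK nose and 2 in DIK mouth. The shares of all genes called lower were 24%, 20.1% and 24.3% in the same order. CASQ1, the calsequestrin that stores calcium in fast fibres, had 0.836, 2.14 and 1.25 CPM in DIK scrotum, against 4332, 1256 and 4288 CPM in WT scrotum. For mouth the values were 1.89, 1.45 and 2.13 CPM in DIK, against 50.7, 82.3 and 37.9 CPM in WT, and in nose 2.66, 0.806 and 3.54 CPM in DIK, against 2762, 2889 and 1987 CPM in WT. CASQ1 differed by -11.17 ± 0.75, -4.95 ± 0.59 and -10.07 ± 0.71 for scrotum, mouth and nose (edgeR adjusted p = 8.62e-09, 4.17e-06 and 2.84e-08). RYR1, the calcium release channel, ATP2A1, the calcium pump of fast fibres, and CACNA1S, the voltage sensor, were not called at the mouth label (edgeR adjusted p = 0.205, 0.445 and 0.363), where WT held 13, 5 and 2 counts. TRDN, triadin of the same complex, was at least 3.95-fold lower in DIK mouth (adjusted p = 0.00632).

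The muscle creatine kinases buffer ATP during contraction. CKM, the cytosolic form, had 1.67, 2.50 and 7.48 CPM in DIK scrotum, against 25623, 10257 and 18354 CPM in WT scrotum. Mouth libraries held 0, 2.91 and 0.266 CPM in DIK, against 914, 3039.8 and 2672 CPM in WT, and in nose 12.6, 0 and 18.2 CPM in DIK, against 6974, 7541 and 8948 CPM in WT. The groups did not overlap, and CKM differed by -12.27 ± 1.58, -10.92 ± 1.53 and -9.57 ± 1.42 for scrotum, mouth and nose (edgeR adjusted p = 1.9e-05, 4.42e-05 and 9.3e-05). CKMT2, the mitochondrial form, had 0 counts in DIK scrotum and DIK nose and was at least 4956-fold and 1529.8-fold lower there. In mouth it had 0, 3 and 0 counts in DIK and 8, 13 and 4 in WT, which gives a ratio of 5.81 (95% interval of counting error 1.77 to 30.04) (edgeR adjusted p = 0.0446). That call was lost without DIK mouth replicate 1 or 3 or any WT mouth library (adjusted p from 0.0551 to 0.138), with no filter on low counts (adjusted p = 0.0614) and with the replicate number as a block (adjusted p = 0.0736). Without DIK mouth replicate 2 the log2 difference was -5.52 instead of -2.40 ± 0.92.

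The myogenic regulators switch on the other genes in muscle precursors and fibres. MYF6, which stays active in adult fibres, had 0, 0 and 0 counts in DIK scrotum, against 142, 22.7 and 84.8 CPM in WT scrotum, and was at least 186-fold lower. In nose it had 1, 0 and 1 counts in DIK, against 318, 245 and 114 CPM in WT, which is lower by a ratio of 996 (95% interval of counting error 275 to 8234). The mouth libraries had 0, 0 and 0 counts in DIK and 2, 5 and 0 in WT and the gene was not called (edgeR adjusted p = 0.169). MYOD1, which commits cells to the muscle lineage, had 0 counts in all DIK libraries, against 11, 4 and 6 counts in WT scrotum, 0, 0 and 0 in WT mouth and 0, 3 and 4 in WT nose. MYOG, which drives differentiation, had 1 count in all 18 libraries, in WT scrotum.

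The isoform mix of the WT tissues was read from the share of a family's reads that fell on each gene. Transcript lengths were not used, so a share may be compared between libraries but does not rank the isoforms. In WT scrotum MYH2 took 47.8, 43.4 and 51.3% of the reads of MYH1, MYH2, MYH4 and MYH7, in WT mouth 36.1, 35.3 and 39.7% and in WT nose 15.05, 19.4 and 22.1%. The 3 tissues did not overlap in this share. MYH1 took 48.8, 53.1 and 45.9% in WT scrotum, 55.4, 58.3 and 52.5% in WT mouth and 74.3, 70.3 and 62.4% in WT nose. MYH4 took 0.745, 0.866 and 0.687% in WT scrotum, 5.26, 2.46 and 2.48% in WT mouth and 5.62, 5.74 and 11.2% in WT nose. The oxidative fast chain thus had its highest share in scrotum and the other fast chains had theirs in nose. Slow MYH7 took 2.46% ± 0.327 in WT scrotum, 4.11% ± 1.10 in WT mouth and 4.61% ± 0.430 in WT nose (SD, n = 3). The WT mouth shares rest on 285, 569 and 282 myosin heavy chain reads per library, against 243504, 101156 and 328024 in WT scrotum and 9877, 37844 and 123744 in WT nose.

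**Figure D3:**
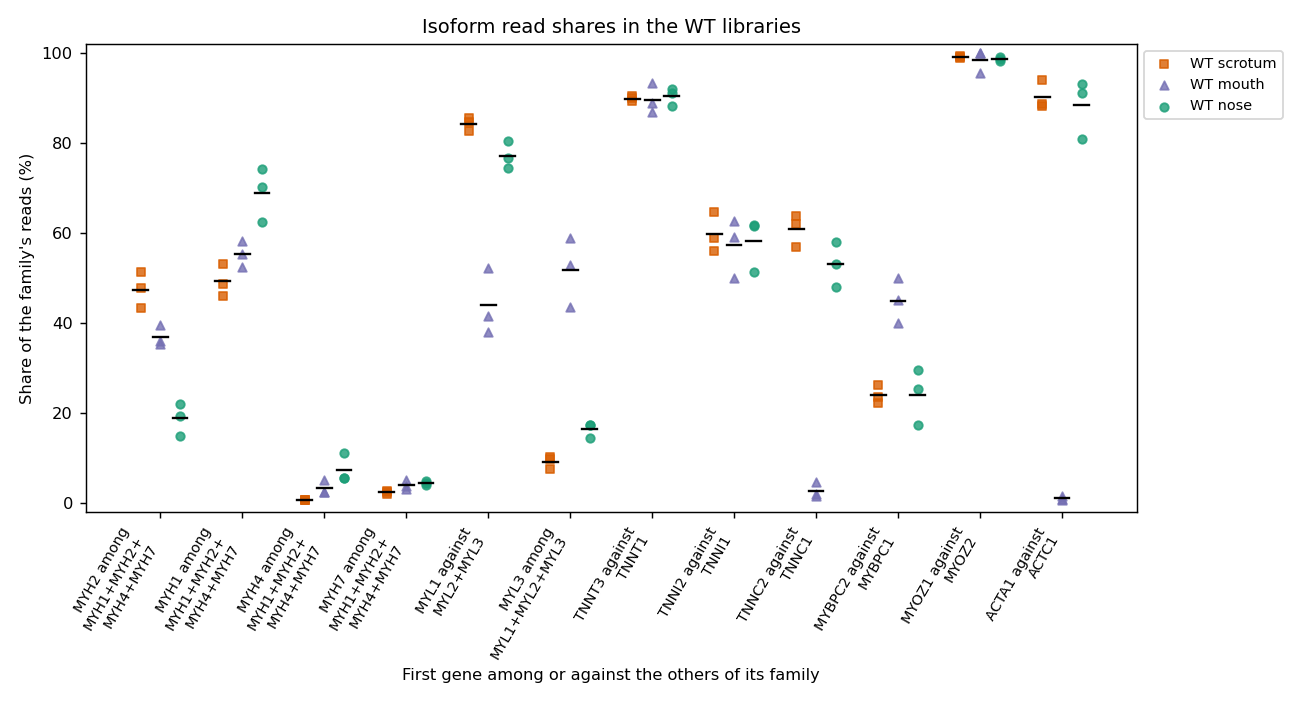
Share of a family's reads that fell on the first-named gene (vertical axis, percent) in each WT library, for 12 fast-slow or heart-skeletal sets (horizontal axis). Points are libraries and bars are means of 3. The WT mouth points do not overlap those of WT scrotum or WT nose for MYH2, MYH4, MYL1, MYL3, TNNC2, MYBPC2 and ACTA1. The points of the 3 tissues overlap for troponins T and I and for MYOZ1.

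Shares within the light chain, troponin and actin sets were compared between the WT tissues without a test. TNNT3, the fast troponin T, stood at 89.9% ± 0.485, 89.7% ± 3.28 and 90.4% ± 1.93 in scrotum, mouth and nose (SD, n = 3). TNNI2 took 59.8% ± 4.45, 57.4% ± 6.61 and 58.3% ± 5.95 of troponin I in the same order, and MYOZ1 99.1% ± 0.223, 98.6% ± 2.51 and 98.7% ± 0.500 of the calsarcins. TNNC2 took 60.9% ± 3.64 of troponin C in WT scrotum and 53.1% ± 4.96 in WT nose, but 2.81% ± 1.65 in WT mouth. MYL1 took 84.3% ± 1.52 against MYL2 and MYL3 in WT scrotum and 77.2% ± 2.98 in WT nose, but 43.99% ± 7.42 in WT mouth. MYL3 alone took 9.29% ± 1.496, 51.9% ± 7.75 and 16.5% ± 1.64 in scrotum, mouth and nose. MYBPC2 took 24.1% ± 2.05, 45.1% ± 5.001 and 24.2% ± 6.27 against MYBPC1, where WT mouth held 28 reads of the first gene. In the actins, ACTA1 took 90.3% ± 3.25 of the ACTA1 and ACTC1 reads in WT scrotum, 1.19% ± 0.455 in WT mouth and 88.4% ± 6.61 in WT nose.

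Comparison of the WT tissues with each other asked whether they carried the same muscle genes at the same level. WT mouth had 38 of the 40 tested genes lower than WT nose (edgeR adjusted p under 0.05), against 9.92% of all genes called lower, with a median log2 difference of -8.20 (0.09 over all genes). WT scrotum had 39 of 40 higher than WT mouth, against 13.7% of all genes called higher, with a median of 9.07 (0.01 over all genes). Some of the genes were near the floor in WT mouth, such as MYOZ2 with 1 count and CACNA1S with 2. These passed the filter through other libraries, so the counts and medians are a description and no test of the list. ACTC1 was not called in either comparison, at 1.07 ± 0.82 for WT mouth minus WT nose and -1.01 ± 0.82 for WT scrotum minus WT mouth (edgeR adjusted p = 0.412 and 0.425). CKM was not called for mouth minus nose (-1.82 ± 1.01, adjusted p = 0.237) and was just called for scrotum minus mouth (3.03 ± 1.06, adjusted p = 0.0499). The scrotum minus mouth call of CKM was lost under 11 of 18 alternatives, among them without any single WT mouth library.

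The level left in WT mouth ranged widely between genes. As a percent of the WT nose mean, ACTC1 stood at 209%, CKM at 28.2%, the Z disc actinin ACTN2 at 13.1%, TNNC1 at 12.6%, MYOM1 at 9.20%, TPM3 at 5.14% and LDB3, a Z disc adaptor, at 5.03%. The myosin heavy chain genes MYH1 and MYH7 stood at 0.302% and 0.340%, TTN at 0.285% and ACTA1 at 0.321%. Next after ACTC1 and CKM, the genes ACTN2 (-2.93 ± 0.62), TNNC1 (-2.99 ± 0.59), MYOM1 (-3.43 ± 0.53), LDB3 (-4.31 ± 0.60) and TPM3 (-4.28 ± 0.40) were called lower than in WT nose. ACTC1 alone gave 85.4, 84.3 and 89.4% of the muscle gene counts other than TPM3 in WT mouth, against 2.90, 2.47 and 4.17% in WT scrotum and 2.74, 4.81 and 10.1% in WT nose. There were 407, 569 and 776 ACTC1 reads per TTN read in WT mouth, against 0.253, 0.285 and 0.553 in WT scrotum and 0.242, 0.747 and 1.66 in WT nose. ACTA1 reads per TTN read, by contrast, were 6.95, 6.35 and 6.09 in WT mouth, 1.90, 4.52 and 4.31 in WT scrotum and 3.26, 7.76 and 6.99 in WT nose. The WT mouth ratios of ACTA1 to TTN thus lay within the range of WT nose and above that of WT scrotum, while those of ACTC1 lay above every other WT library.

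**Figure D4:**
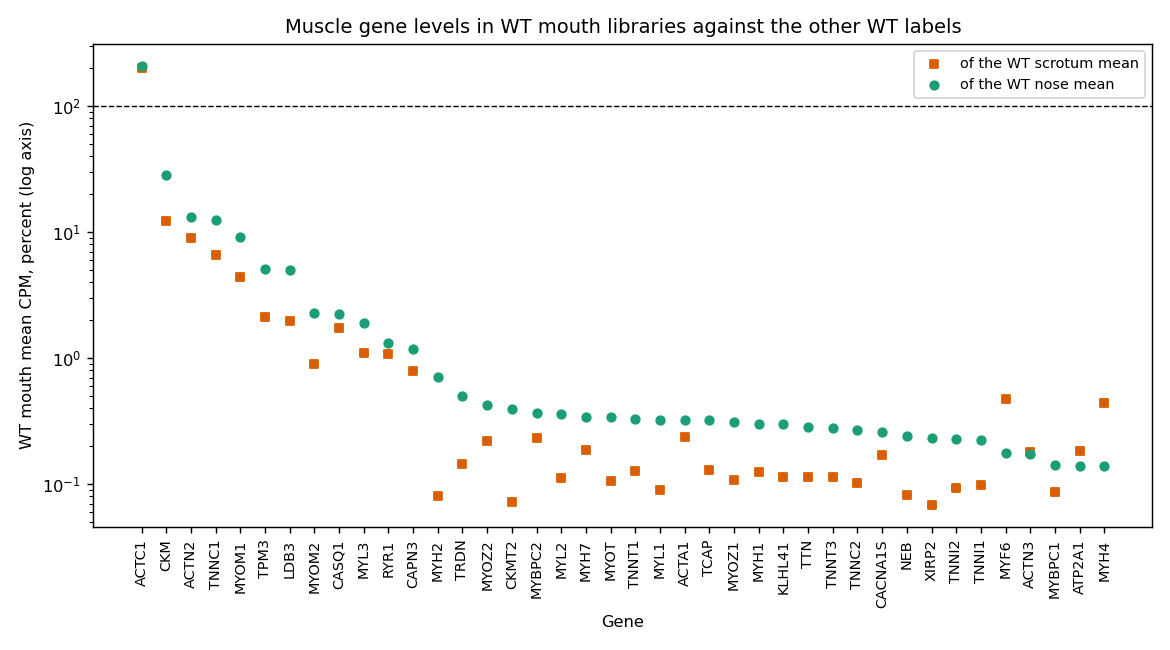
Mean level of each tested gene in WT mouth as a percent of its mean in WT scrotum (squares) and in WT nose (circles), on a log axis, with genes on the horizontal axis in falling order of the second. The dashed line marks equal levels, which ACTC1 alone exceeds, and most genes lie under 1%.

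Smooth muscle markers were at their highest in the same WT mouth libraries. Of the 10 markers, 9 were called higher in WT mouth than in WT nose, against 9.92% of all genes, and 8 lower in WT scrotum than in WT mouth, against 9.29% of all genes. MYH11, the smooth muscle myosin heavy chain, had 3577, 8221 and 7474 CPM in WT mouth, against 83.1, 23.3 and 173 CPM in WT scrotum and 348, 304 and 191 CPM in WT nose. DES, the desmin shared by all muscle types, had 2560.2, 5878 and 5979 CPM in WT mouth, 5245, 1283 and 2618 CPM in WT scrotum and 1553, 1283 and 1818 CPM in WT nose. Of a list of heart genes, 9 had a row, and they summed to 0.638 to 1.83 CPM in WT mouth. Their sum was 4.86 to 10.3 CPM in WT scrotum and 11.5 to 187 CPM in WT nose. Heart genes need not be specific to heart, as MYL4 and TNNT2 are also genes of fetal or embryonic muscle. Most WT nose counts of both lay in a single library, as given below. The WT nose sum can therefore not be read as heart-type expression alone. MYL7, the atrial light chain, had 0 counts in all 18 libraries. The part of smooth muscle in the ACTC1 level was not tested.

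WT scrotum and WT nose differed in few of the muscle genes by the test. Of the 40, 4 were called higher in WT scrotum, against 2.6% of all genes: MYH2 at 3.13 ± 0.72, CKMT2 at 2.45 ± 0.59, TRDN at 1.82 ± 0.50 and TPM3 at 1.28 ± 0.36 (edgeR adjusted p = 0.0142, 0.0251, 0.0424 and 0.0401). The median log2 difference was 1.24, against 0.20 over all genes. MYH4 went the other way at -1.68 ± 0.66 and was not called (adjusted p = 0.137), nor was MYF6 at -1.43 ± 0.62 (adjusted p = 0.187). The count rested on single libraries. It was 17 without WT scrotum replicate 2, whose muscle share was lower than that of replicates 1 and 3. It was 0 without WT nose replicate 1 or 2 and 1 without WT nose replicate 3 or WT scrotum replicate 1.

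Genes of immature muscle outside the set showed a single library in WT nose. The light chain MYL4 of atrium and fetal muscle had 1, 1 and 6 counts in WT scrotum and 0, 25 and 505 counts in WT nose. The fetal acetylcholine receptor subunit CHRNG had 3, 3 and 6 counts in WT scrotum and 0, 7 and 118 in WT nose. Both had too few libraries with enough counts to pass the filter, and so were not tested. Nearly all counts were in WT nose replicate 3, which also had the highest ACTC1 level of the WT nose and WT scrotum libraries. TNNT2, the heart and embryonic troponin T, had 3, 4 and 18 counts in WT scrotum and 4, 26 and 359 in WT nose and was lower in scrotum, with a log2 difference of -3.93 ± 0.83 (edgeR adjusted p = 0.0106). MYBPH, a myosin-binding protein, was lower in scrotum at -2.35 ± 0.54 (adjusted p = 0.019). Of the satellite cell genes, PAX7 had 5, 9 and 6 counts in WT scrotum and 3, 6 and 18 in WT nose and 0 in every other library, and it was not tested.

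What remained of the muscle genes in the tumours was a small and uneven residue. The 9 DIK libraries together held 17566 counts of the 42 genes, of which TPM3 gave 10015 and ACTA1 6186. Without these the residue was 1365 counts, led by MYOM2 with 347, CKM with 157 and TTN with 139. MYOD1 and MYOG had 0 counts in all tumours, and 6 other genes had 1 to 3. The number of genes with at least 1 count was 25, 25 and 24 in DIK scrotum, 11, 16 and 14 in DIK mouth and 34, 23 and 36 in DIK nose. A count of 0 sets a limit of 3 counts, and these limits and the intervals given cover counting error only.

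The residue was largest in DIK nose replicates 1 and 3. Their summed level without TPM3, on the same unscaled basis, was 775 CPM (exact 95% Poisson interval 749 to 802) and 1035 (1002 to 1069), against 34.3 (28.9 to 40.4) in replicate 2. ACTA1 made up 2814 and 3248 of the 3214 and 3645 counts in replicates 1 and 3. These 2 libraries had 55.2 and 83.3 ACTA1 reads per TTN read, whereas the WT nose libraries had 3.26, 7.76 and 6.99. Both ratios were above every WT nose library, while DIK nose replicate 2, at 1.55, was below them. ACTA1 in DIK nose stood at 0.804% of its WT nose mean, MYH1 at 0.0241%, TTN at 0.0750%, TNNT3 at 0.0484% and CKM at 0.131%. MYOM2 stood at 35.99% and TPM3 at 7.80%.

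In DIK scrotum the corresponding values were 0.0160% of WT scrotum for ACTA1, 0.0139% for MYH1, 0.0146% for TTN, 0.497% for MYOM2 and 6.70% for TPM3. DIK scrotum replicate 3 had the largest sum of its group without TPM3, at 75.1 CPM (63.6 to 87.99). DIK mouth had the smallest residue, 45, 91 and 71 counts without TPM3, led in replicates 1 and 2 by MYOM2 and in replicate 3 by ACTC1. The fast chains MYH1 and MYH2 gave 17, 10 and 28 heavy chain reads together with MYH4 and MYH7 in DIK scrotum, 1, 0 and 2 in DIK mouth and 21, 7 and 33 in DIK nose. Slow MYH7 took 1 of 55 such reads in DIK scrotum and 3 of 61 in DIK nose.

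**Figure D5:**
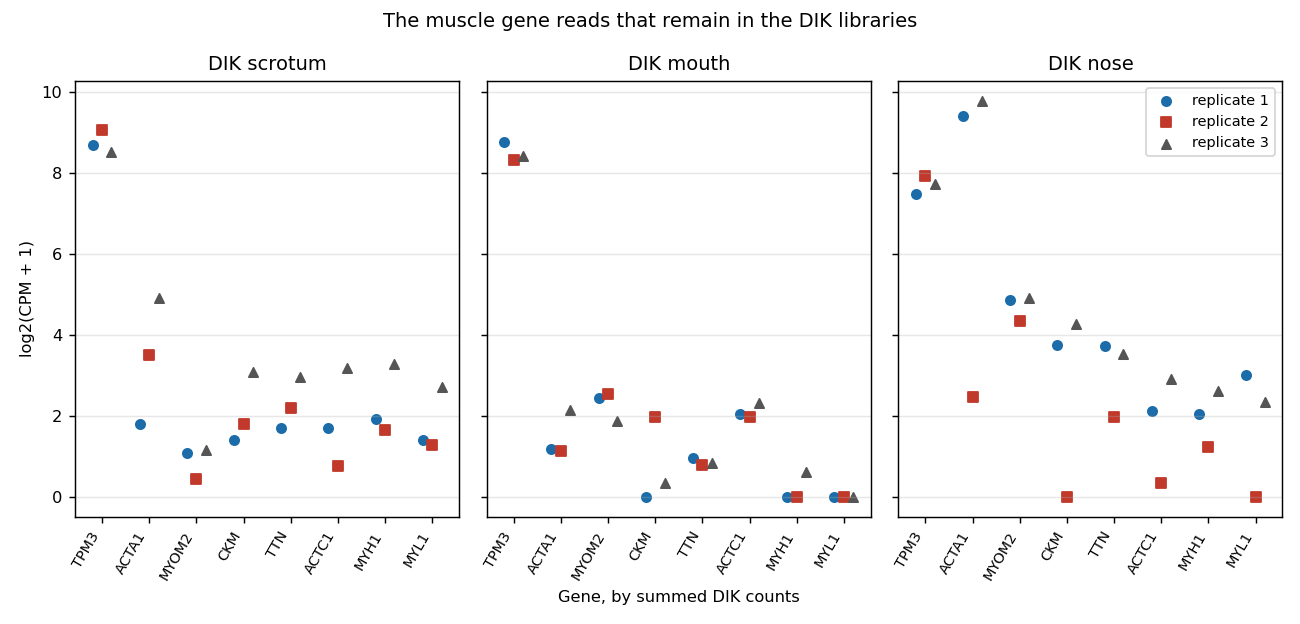
Level of the 8 genes with the most reads over the tumours (horizontal axis) in each DIK library, as log2(CPM + 1) (vertical axis), with one symbol per replicate. TPM3 is high in all 9 libraries, ACTA1 is high in DIK nose replicates 1 and 3 alone, and MYOM2 is higher in DIK nose than in the other tumours.

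Between the tumour sites few muscle genes were called different. Many had so few DIK counts that a difference between tumours could hardly be called. DIK mouth had 6 of 40 genes lower than DIK nose (edgeR), against 1.16% of all genes called lower: ACTA1 (-8.02 ± 1.41, adjusted p = 0.00847), MYOM2 (-2.68 ± 0.52, adjusted p = 0.0122), TTN (-3.35 ± 0.67, adjusted p = 0.0132), and MYL1, TNNT3 and NEB, which had 0 counts in DIK mouth and were at least 14.1-fold, 11.2-fold and 4.48-fold lower. The count was 8 without DIK nose replicate 2, which added MYH1 and CKM. It fell to 0 or 1 without any 1 of the DIK mouth libraries or DIK nose replicate 1, and to 3 without DIK nose replicate 3. DIK scrotum had 2 genes lower than DIK nose, against 2.68% of all genes: MYOM2 (-4.81 ± 0.66, adjusted p = 0.000349) and ACTA1 (-5.25 ± 1.23, adjusted p = 0.0193). ACTA1 lost that call without DIK nose replicate 1 or 3 or DIK scrotum replicate 1 or 2. DIK scrotum had 4 genes higher than DIK mouth, against 1.83% of all genes: MYH1 and MYH2 by ratios of 20.7 (95% interval of counting error 5.26 to 179) and 30.4 (95% interval of counting error 4.92 to 1256), and MYL1 and TNNT3 by at least 8.76-fold and 7.38-fold. All 4 are fast-fibre genes, and the count was 0 or 1 without any single DIK mouth library or DIK scrotum replicate 3.

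Whether the DIK minus WT difference differed between labels was tested as an interaction, which also takes in how the WT tissues differ. The DIK minus WT difference was higher (less negative) at mouth than at nose for 8 of the 40 genes, against 3.99% of all genes, with TPM3 at 5.08 ± 0.53 and TTN at 5.10 ± 0.92 (edgeR adjusted p = 1.97e-05 and 0.00196). It was lower at scrotum than at mouth for 12, against 8.1% of all genes, with TPM3 at -5.30 ± 0.53 and TTN at -7.52 ± 0.97 (adjusted p = 9.34e-06 and 7.33e-05). It was lower at scrotum than at nose for 4, against 4.46% of all genes, led by MYOM2 at -6.19 ± 0.81 (adjusted p = 0.000226). A gene with 0 counts in a DIK group could have too large an SE to be called. For scrotum minus mouth NEB, with 0 counts in DIK mouth, had -7.16 ± 90.7. Genes that were not called can therefore not be taken as alike between labels. Each interaction value is the DIK difference between labels minus the WT difference. For mouth minus nose these parts were 0.80 and -4.28 for TPM3 and -3.35 and -8.45 for TTN. For scrotum minus mouth they were 0.25 and 5.56 for TPM3 and 2.26 and 9.78 for TTN. For MYOM2 at scrotum minus nose they were -4.81 and 1.38. The WT part was thus the larger for TPM3 and TTN, and the DIK part for MYOM2 at scrotum minus nose. For MYOM2 at mouth minus nose the parts were -2.68 in DIK and -5.36 in WT. At scrotum minus mouth they were -2.14 in DIK and 6.74 in WT, so the WT part was the larger in both mouth comparisons.

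Other striated muscle genes, outside the 42, were listed with earlier results of these data known. Of 60 tested, 58 were lower and 2 not called in DIK scrotum, against 24% of all genes called lower. The counts were the same in DIK nose, against 20.1% of all genes. In DIK mouth 36 were lower, 1 was higher and 23 were not called, against 24.3% of all genes lower and 22.7% higher. These counts are a description and no test of the list. The largest fitted differences among called genes were those of PDLIM3, an actinin-binding protein of the Z disc, MYOZ3, another calsarcin, and PYGM, the muscle glycogen phosphorylase, in scrotum. PDLIM3 was lower by a ratio of 19119.7 (95% interval of counting error 3431 to 755214), MYOZ3, with 0 DIK counts and so a fitted value that depends on the prior count, by at least 809-fold, and PYGM with a log2 difference of -13.13 ± 0.92 (edgeR adjusted p = 1.09e-08). In mouth DES differed by -11.44 ± 0.83 and PDLIM3 by -10.41 ± 1.11 (adjusted p = 6.82e-08 and 2.42e-06), and HSPB7, a small heat shock protein not counted in DIK mouth, lay at least 111-fold lower. In nose SMPX, a small muscle protein, and CSRP3, a LIM protein of the Z disc, were lower by ratios of 3619 (95% interval of counting error 649 to 142984) and 2434 (95% interval of counting error 673 to 20109), and TRIM63, a muscle ubiquitin ligase, was at least 206-fold lower. MEF2A and MEF2D, transcription factors that are also made outside muscle, were not called in scrotum (-0.78 ± 0.33 and -0.41 ± 0.39) or nose (-0.06 ± 0.34 and -0.77 ± 0.40).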

How the data were processed

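The data are RNA-seq libraries of pig tumours and normal tissue, 18 in all. The deposited values are raw counts per gene made by the authors, who used fastp, HISAT2 2.1.0 and HTSeq 0.11.2 per the submitters' processing notes. The notes used here state no genome build, annotation, strand setting or handling of reads shared by related genes, so counts of near-identical genes and of genes with antisense partners are uncertain. Groups follow the labels.

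The counts were fitted with edgeR 4.0.16 (R 4.3.3, limma 3.58.1) over all 18 libraries, with 1 coefficient per group, TMM scaling, the default expression filter, the quasi-likelihood test and Benjamini-Hochberg adjustment over the 12895 genes kept, and a threshold of 0.05. A group with 0 counts was given a floor of 3 counts over the group for a lower bound of the fold, and one with 1 to 3 counts a ratio with a 95% counting interval. These cover counting error only. Library totals of 418665 to 5041470 counts set the precision. The members and lists were chosen with earlier results of these data known.

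Values in every library are given for the myosin heavy chains, the highest member of each role over the 9 WT libraries, both members of each fast and slow pair, the 5 members with the most DIK counts and any member called against the rest. Of the other striated muscle genes, up to 3 called genes per comparison with the largest difference were named, and up to 3 that were not called or went the other way. A result for 1 gene of that list is not reported here. Other genes named were chosen after their values were seen. Alternatives were other scalings, filters and thresholds, DESeq2 1.42.0, limma-voom, a replicate block, fits of the compared groups alone and leaving out each library. Levels per coding length, promoters and protein sequences were not used here. No pairing was used. Deviations of same-numbered libraries from their group means correlated at -0.226 to 0.215, which cannot exclude a shared animal. No 2 libraries of a group agreed within counting noise (lowest chi-square per degree of freedom 6.90).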

Additional observations from a re-analysis of the deposited data

Results flagged for a closer look

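The difference between DIK and WT itself differed between labels for the genes below, by the edgeR interaction test with an adjusted p under 0.05. Values are the difference of log2 differences.

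For mouth minus nose, TNNI2 had 8.84, RYR1 6.78, TCAP 6.16, CASQ1 5.12, TTN 5.10, TPM3 5.08 and MYOM2 2.68. CKMT2 had 11.06, which depends on the prior count because DIK nose held 0 counts of it. RYR1 rested on 3 counts in DIK mouth and 2 in DIK nose. Without DIK mouth replicate 2, TCAP had 2.68 and was no longer called, nor was CKMT2 (edgeR adjusted p = 0.946 and 1). That library held all DIK mouth counts of both genes, so without it their estimates depend on the prior count. RYR1 lost its call without DIK mouth replicate 1 or 3 (adjusted p = 0.223 and 0.0643) and at a threshold of 0.01. MYOM2 lost it under 11 of 25 alternatives, with values from 2.33 to 2.92 and an adjusted p of up to 0.119. TNNI2, CASQ1, TTN and TPM3 were called under all 25. For scrotum minus nose, MYOM2 had -6.19, ACTA1 -5.69 and NEB -3.67, and XIRP2 had -6.17, which depends on the prior count because DIK scrotum held 0 counts. NEB had 2 counts in DIK scrotum. MYOM2 was called under all 25 alternatives. XIRP2 lost its call under 14 of them, ACTA1 under 12 and NEB under 9, with adjusted p of up to 0.15, 0.105 and 0.121.

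For scrotum minus mouth, TNNI2 had -10.14, MYBPC2 -9.09, MYOM2 -8.88, TCAP -8.61, TTN -7.52, CASQ1 -6.22, ACTA1 -5.94, RYR1 -5.75, TPM3 -5.30, MYOM1 -4.87 and ACTN2 -4.79. CKMT2 had -13.52, with 0 counts in DIK scrotum. MYBPC2 rested on 1 count in DIK scrotum and 2 in DIK mouth, and RYR1 on 4 and 3, so the sizes of these values are rough. Without DIK mouth replicate 2 the calls of TCAP (-5.13), MYBPC2 (-6.47), CKMT2 (-10.39) and MYOM1 (-4.76) were lost (edgeR adjusted p = 0.993, 1, 1 and 0.0583). That library held all DIK mouth counts of TCAP, MYBPC2 and CKMT2, so without it their estimates depend on the prior count. MYOM1 reached -8.80 without DIK scrotum replicate 1. MYBPC2 and MYOM1 were also lost at a threshold of 0.01. ACTA1 lost its call under 6 of 24 alternatives (adjusted p up to 0.11) and RYR1 under 3, namely without DIK mouth replicate 1 or 3 and at 0.01 (adjusted p up to 0.276). TNNI2, MYOM2, TTN, CASQ1, TPM3 and ACTN2 were called under all 24. TPM3 and MYOM2 stood above WT in DIK mouth and below WT in DIK nose and DIK scrotum in all libraries. WT mouth, which enters both mouth comparisons, held these genes other than ACTN2, MYOM1 and TPM3 at under 3% of the WT nose mean.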

How the results depend on the processing

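No called result changed direction under the alternatives run. Counts of muscle genes called lower in DIK scrotum and DIK nose stayed within 1.5 times their value in each setting, and those in DIK mouth did so except in the fit of the compared groups alone, with 17 lower and 2 higher. That fit tested 20 of the 40 genes, since fewer passed its filter on low counts, and none of the calls made for DIK minus WT was lost among those tested. Without 1 library, the genes lower in DIK numbered 27 to 29 for mouth and 39 to 40 for nose. Those higher in WT scrotum than WT nose numbered 0 to 17, and than WT mouth 38 to 39. Those lower in DIK mouth than DIK nose numbered 0 to 8, those lower in DIK scrotum than DIK nose 1 to 2, and those higher in DIK scrotum than DIK mouth 0 to 3. Interaction counts were 5 to 8 (mouth minus nose), 1 to 7 (scrotum minus nose) and 9 to 16 (scrotum minus mouth).

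The 4 genes higher in WT scrotum than WT nose became 2 with library size only, 9 with DESeq2, 26 with limma-voom, 0 at an adjusted p under 0.01, 1 in the fit of the compared groups, and 0 without WT nose replicate 1 and DIK nose replicate 2 together (chosen after seeing the data). With the replicate number as a block that count was 1. Of the 45 correlations of same-numbered libraries 8 were over 0.1. Differently numbered libraries were not correlated for reference, so whether the numbers pair samples cannot be told from this. DIK scrotum against DIK nose gave 1 lower with no filter, 1 lower at an adjusted p under 0.01, 1 lower and 1 higher in the fit of the compared groups, and 1 higher with DESeq2 and with limma-voom. DIK mouth against DIK nose gave 1 lower at 0.01 and in the fit of the compared groups, and 1 higher with limma-voom, which also gave 1 gene higher in WT mouth than WT nose. DIK scrotum against DIK mouth gave 2 higher with limma-voom and 0 at 0.01 and in the fit of the compared groups. The interaction counts were 29 (mouth minus nose) and 35 (scrotum minus mouth) with DESeq2, and 32, 7 (scrotum minus nose) and 36 with limma-voom. Scrotum minus nose was 1 at 0.01 and in the fit of the compared groups. The fits of the compared groups tested 5 (DIK mouth against nose), 9 (scrotum against nose) and 3 (scrotum against mouth) of the 40 genes, and genes outside them cannot be called there. The cause of the other moves was not tested. Scaling by library size only put the median log2 difference of all genes at -0.29 for DIK minus WT mouth, -0.21 for DIK minus WT scrotum, 0.38 for WT mouth minus WT nose and -0.44 for WT scrotum minus WT mouth, where 1174 genes were then higher and 2670 lower, against 1772 and 1198 with TMM. The summed level was 491.41 CPM in DIK scrotum on the TMM scale. Without the most-read member it was 285.57 CPM in DIK nose and 92425 CPM in WT nose. Without 1 library the sums ran from 383.46 to 429.46 CPM in DIK scrotum, 372.58 to 428.40 in DIK mouth, 602.68 to 1104.10 in DIK nose, 234420 to 319870 in WT scrotum, 22649 to 35920 in WT mouth and 149440 to 170140 in WT nose. Shares per coding length were not run. At the mouth label, 18 genes had 0 counts in DIK and 11 had 1 to 3, so their fold changes are bounds or ratios of few counts.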
